A study of Homo sapiens with 12 samples.

Results

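The 10 genes described here sit on opposite sides of the epithelial-mesenchymal transition (EMT). SNAI1, SNAI2, ZEB1, ZEB2 and TWIST1 are transcription factors that drive it, and OVOL1, OVOL2, GRHL2, ESRP1 and ESRP2 are factors that hold cells in the epithelial state. They were chosen by symbol from the deposited table of raw counts, where each matched 1 of the 57500 gene rows. Total RNA depleted of ribosomal RNA was sequenced from 12 libraries in 4 groups of 3 biological replicates. SW480 is a colorectal cancer line from a primary tumour, and SW620 is a line from a metastasis of the same patient. PEO4 cells, from an ovarian cancer, were kept in standard medium (PEO4 control) or received recombinant human TGF-β at 10 ng/mL for 6 days. PEO4 grew in RPMI 1640 and the SW lines in DMEM, both with fetal bovine serum, so line, tissue and medium cannot be told apart between them. Each line is a single established line, and no library carries a drug label, although the series title names cediranib and NU-7441.

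EMT is the programme by which epithelial cells give up junctions and polarity for a motile state. The SNAI, ZEB and TWIST proteins bind E-box elements and repress junction genes such as CDH1, and TGF-β is a classical inducer of several of them. OVOL1, OVOL2 and GRHL2 repress or oppose ZEB1, and ESRP1 and ESRP2 are RNA-binding proteins that set the epithelial pattern of exon use. The miR-200 family of microRNAs targets the ZEB messages, and the ZEB proteins repress the miR-200 genes in return, so that either side can hold the other down.

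The mature microRNAs of the miR-200 family are shown because they form the link between both ZEB genes and the epithelial state. The capitals mark the seed, bases 2 to 8. RefSeq (GRCh38.p14) places miR-200b, miR-200a and miR-429 together on chromosome 1, and miR-200c and miR-141 together on chromosome 12. The family holds 2 seeds. The first is shared by miR-200b, miR-200c and miR-429, and the second by miR-200a and miR-141.
hsa-miR-200b-3p: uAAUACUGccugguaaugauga
hsa-miR-200c-3p: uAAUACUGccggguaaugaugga
hsa-miR-429: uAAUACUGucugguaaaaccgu
hsa-miR-200a-3p: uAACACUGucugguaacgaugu
hsa-miR-141-3p: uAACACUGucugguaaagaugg

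The letters complementary to these seeds, CAGTATT and CAGTGTT, were searched on the sense strand of the 3′ UTR of 1 coding transcript per gene in GENCODE 29. ZEB1 held 6 CAGTATT and 3 CAGTGTT in 2549 bases, and ZEB2 held 5 and 4 in 5370 bases. CAGTATT occurred at least once in 14.1% of 19145 genes and at least 3 times in 0.669%. For CAGTGTT the shares were 15.8% and 0.841%. These shares cover 3′ UTRs of every length and were not matched to the lengths of the ZEB ones. Among the other members SNAI2, GRHL2 and ESRP1 held 1 or no copy of each, and SNAI1, TWIST1, OVOL1, OVOL2 and ESRP2 held neither. A letter match is a description and not a shown target site. One match of each kind is given for ZEB1 and ZEB2, with the match in capitals.
ZEB1 with CAGTATT: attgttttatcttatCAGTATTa
ZEB1 with CAGTGTT: caaaatcatcagaatCAGTGTTt
ZEB2 with CAGTATT: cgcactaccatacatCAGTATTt
ZEB2 with CAGTGTT: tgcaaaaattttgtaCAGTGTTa

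Promoters of 300 bases (250 before and 50 after each start) were taken from RefSeq, with a match for ZEB1 (7 starts) and ZEB2 (1 start), and for 12 of 20 epithelial target genes and 11 of 18 mesenchymal ones. No match was made for SNAI1, SNAI2, TWIST1, OVOL1, OVOL2, GRHL2, ESRP1 or ESRP2. CDH1 was among the epithelial target genes without a match, so its E-boxes are not counted here. The E-box CACCTG, searched on both strands and so also as CAGGTG, was in 20.6% of 34794 promoters at least once and in 3.49% at least 2 times. In genes, 9 of the 12 epithelial targets and 3 of the 11 mesenchymal targets held it in at least 1 promoter, against 24.1% of 27056 genes. The OVOL core CCGTTA (or TAACGG) was in 3.08% of promoters, among them 1 of ZEB1 and the 1 of ZEB2. The GRHL core AACCNGTT was in 1.72%, and in none of the ZEB promoters. The sequences given are the ZEB1 promoter with the most E-boxes (3, plus strand, chr10:31318966-31319265), and those of CLDN7 (5, minus strand, chr17:7262429-7262728) and CRB3 (5, plus strand, chr19:6464021-6464320). CLDN7 and CRB3 encode a claudin and a polarity protein, and their levels behaved differently in SW620, as described further on. Capitals mark the E-boxes and, in CRB3, a CCGTTA that directly precedes an E-box without sharing a base with it.
ZEB1: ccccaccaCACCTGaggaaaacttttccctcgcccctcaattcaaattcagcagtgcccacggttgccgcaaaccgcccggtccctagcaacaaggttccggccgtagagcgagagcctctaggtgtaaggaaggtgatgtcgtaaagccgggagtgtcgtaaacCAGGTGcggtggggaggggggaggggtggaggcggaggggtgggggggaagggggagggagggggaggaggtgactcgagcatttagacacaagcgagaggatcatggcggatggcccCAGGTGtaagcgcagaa
CLDN7: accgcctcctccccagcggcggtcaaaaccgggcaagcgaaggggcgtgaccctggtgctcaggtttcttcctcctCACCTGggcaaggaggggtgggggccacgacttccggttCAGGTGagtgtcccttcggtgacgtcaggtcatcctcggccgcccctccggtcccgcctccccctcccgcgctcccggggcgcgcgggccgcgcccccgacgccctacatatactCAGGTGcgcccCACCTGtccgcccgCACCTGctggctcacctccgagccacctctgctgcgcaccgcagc
CRB3: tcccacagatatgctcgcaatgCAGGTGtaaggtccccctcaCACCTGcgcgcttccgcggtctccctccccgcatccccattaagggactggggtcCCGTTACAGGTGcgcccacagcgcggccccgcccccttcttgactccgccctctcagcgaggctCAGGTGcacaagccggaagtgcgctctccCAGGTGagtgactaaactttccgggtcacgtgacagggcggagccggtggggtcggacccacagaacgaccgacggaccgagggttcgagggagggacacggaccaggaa

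The 12 libraries held 14531420 to 22028956 counts each. Levels are given as CPM, counts brought to a common library size with the trimmed mean of M values (TMM), as mean ± SD with n = 3 libraries. Where genes are compared with each other, CPM was divided by kilobases of annotated exon. Summed lineage markers fitted the labels. The 6 ovarian markers summed to 5379 to 8599 CPM in PEO4 control and 107 to 168 CPM in the SW libraries. The 6 intestinal markers summed to 35.8 to 399 CPM in the SW libraries and to at most 3.34 CPM in PEO4. MUC16 was the largest part of the ovarian sum (5666 CPM in PEO4 control), and PAX8, WT1, EMX2 and MSLN were also higher there. SOX17 was instead lower there (1.60 CPM) than in SW480 (2.56) and SW620 (2.99). In SW480 and SW620, CDX1 (0.179 and 0.119 CPM) and GPA33 (0.463 and 0.495 CPM) were low but above PEO4. SW620 replicate 3 stood apart, since 40 genes specific to PEO4 were read there at 1.06% of their PEO4 level. In the other SW libraries the share was 0.045% to 0.300%, from 16 to 36 marker genes. These sets were chosen for each library separately, so the shares do not rest on the same genes. Replicate 3 of both PEO4 groups held genes specific to the SW lines at 0.833% (control) and 0.853% (TGF-β) of the SW level, from 8 and 3 marker genes. For the members most affected, the carried-over counts this would give are set beside the result. In bulk RNA, fewer cells that express a gene and less RNA per cell cannot be told apart.

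**Figure D1:**
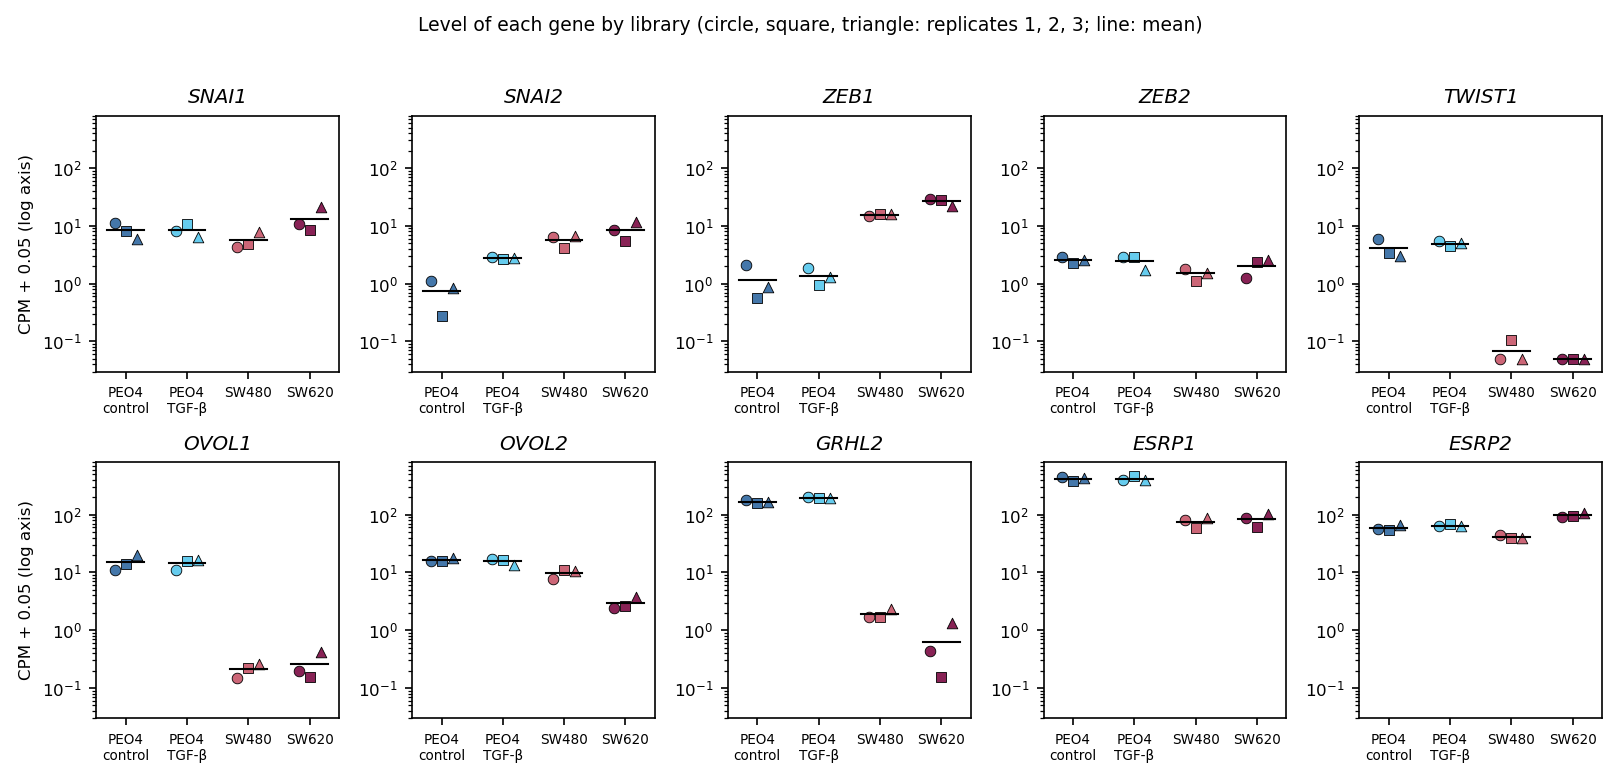
Level of each of the 10 genes in every library, as CPM plus 0.05 on a log axis, with circles, squares and triangles for replicates 1, 2 and 3 and a line at the mean of 3. GRHL2 and OVOL1 lie far lower in all 6 SW libraries than in PEO4, ZEB1 lies higher in the SW lines, and SNAI2 is higher in all 3 PEO4 libraries with TGF-β than in the 3 controls.

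Before and after TGF-β, PEO4 carried all of the epithelial factors and low levels of ZEB1. The SW lines carried ZEB1, ESRP1 and ESRP2 together with almost no GRHL2 or OVOL1. ZEB2 was low in PEO4 and in the SW lines alike. GRHL2, a grainyhead-like activator of junction genes (chr8:101492432-101669726, GRCh38), was at 167 ± 12.3 CPM in PEO4 control, 1.86 ± 0.36 in SW480 and 0.588 ± 0.612 in SW620. OVOL1, a zinc-finger repressor (chr11:65787022-65797219), was at 14.9 ± 4.50 CPM in PEO4 control and at 2 to 8 counts per library in the SW lines. TWIST1, a basic helix-loop-helix factor (chr7:19020991-19117672), gave 57 to 100 counts in each PEO4 control library, a single count in SW480, in replicate 2, and none in SW620. Thus the EMT factors did not move as a block: TWIST1 was on the PEO4 side, and ZEB1 and SNAI2 were on the SW side.

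ZEB1, a zinc-finger homeobox repressor (chr10:31318495-31529814), was at 2.02, 0.514 and 0.834 CPM in the 3 PEO4 control libraries, at 14.8, 15.8 and 16.0 CPM in SW480 and at 29.1, 27.5 and 22.3 CPM in SW620. No PEO4 library reached any SW library. ZEB1 was 13.98-fold lower in PEO4 control than in SW480 (log2 fold change -3.80, SE 0.34) and 23.9-fold lower than in SW620 (-4.58, SE 0.35). PEO4 control replicate 1 had the most ZEB1, with 35 counts, and without it the values were -4.50 and -5.27. At the share of SW reads measured in PEO4 control replicate 3, 4.07 of its 16 ZEB1 counts would be carried over (25.4%).

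SNAI2, a zinc-finger repressor also known as Slug (chr8:48917604-48921740), was at 0.684 ± 0.415 CPM in PEO4 control, against 5.64 ± 1.40 in SW480 and 8.40 ± 3.01 in SW620. The difference was 8.25-fold from SW480 and 12.3-fold from SW620. SNAI1, also known as Snail (chr20:49982999-49988886), was at 8.35 ± 2.67 CPM in PEO4 control, 5.60 ± 1.95 in SW480 and 13.3 ± 6.62 in SW620, and the PEO4 control libraries overlapped those of either SW line. ZEB2, the paralogue of ZEB1 (chr2:144364364-144524583), was low everywhere, with group means of 1.45 to 2.52 CPM.

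Among the guardians, OVOL2 (chr20:17956979-18059188) was at 16.3 ± 1.15 CPM in PEO4 control, 9.70 ± 1.81 in SW480 and 2.91 ± 0.763 in SW620, with no overlap between these 3 groups. ESRP1 (chr8:94641074-94707466) was at 418 ± 30.8 CPM in PEO4 control and at 75.6 ± 15.7 and 83.8 ± 21.7 in SW480 and SW620. ESRP2 (chr16:68229111-68238102) had another order: 97.7 ± 8.26 CPM in SW620, 58.4 ± 5.78 in PEO4 control and 41.1 ± 3.21 in SW480.

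By edgeR's quasi-likelihood test, 8 of the 10 genes differed between PEO4 control and SW480 at an adjusted p under 0.05, where 56.7% of all 23457 genes tested did. Of these, 6 were higher in PEO4 (TWIST1 and all 5 guardians; background 27.5%) and 2 lower (SNAI2 and ZEB1; background 29.1%). Against SW620, 8 of 10 also passed, where 58% of all genes did: TWIST1, OVOL1, OVOL2, GRHL2 and ESRP1 were higher in PEO4 (background 29.7%), and SNAI2, ZEB1 and ESRP2 lower (background 28.3%). SNAI1 and ZEB2 passed in neither. Both comparisons share the PEO4 control libraries. With plain library totals in place of TMM, every log2 fold change moved by -0.25 against SW480 and -0.32 against SW620, and the split of all genes against SW620 went from 6975 higher and 6641 lower to 5614 and 8617. No member changed direction, although ESRP2 against SW480 then missed the threshold and SNAI1 against SW620 passed it.

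The fold differences of the 3 genes nearest to 0 in the SW lines rest on few counts. GRHL2 was 88.4-fold higher in PEO4 control than in SW480 (log2 6.47, SE 0.34) and 273-fold higher than in SW620 (log2 8.09, SE 0.39). At each library's own share of PEO4 reads, carried-over counts would make up 14.6% to 27.2% of its GRHL2 counts in SW480 and 52.9% to 140.1% in SW620. SW620 replicate 3 holds 27 of the SW620 counts, and without it the log2 fold change was 9.33. OVOL1 was 89.7-fold higher than in SW480 (log2 6.49, SE 0.41) and 67.8-fold higher than in SW620 (log2 6.08, SE 0.39), or log2 6.82 without SW620 replicate 3. Its carried-over counts would be 4.3% to 38.7% of those in the SW libraries, the most in SW620 replicate 3. TWIST1 was 226-fold higher than in SW480 in pooled counts (95% counting interval 40.1 to 8958, exact binomial, counting error only), and at least 27.3-fold higher than in SW620, with 3 counts per library as the floor. OVOL1 shares 27.1% of its exon bases with AP001266.1 on the opposite strand, and since strand use in the counting is not stated, reads of both cannot be told apart. For ZEB1, ZEB2, TWIST1, OVOL2 and ESRP2 the largest overlap with another gene, on either strand, was 2.7% to 6.9%.

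Per kilobase of exon, ESRP1 stood at 85.7 ± 6.32 CPM per kb in PEO4 control, above GRHL2 at 27.6 ± 2.03, ESRP2 at 10.5 ± 1.04 and OVOL2 at 7.51 ± 0.530. The highest EMT factor there was SNAI1 at 4.95 ± 1.58 CPM per kb, above the guardian OVOL1 at 3.88 ± 1.17, though their libraries overlapped. In SW620 the order was ESRP2 at 17.6 ± 1.49 and ESRP1 at 17.2 ± 4.45, whose libraries overlapped, then SNAI1 at 7.87 ± 3.93 and ZEB1 at 3.04 ± 0.412. ZEB1 exceeded ZEB2 per exon base by 32.5-fold in SW480 (24.3 to 42.4 over the libraries) and by 43.6-fold in SW620 (25.8 to 70.0). With the longest transcript as length these ratios were 17.2 and 23.0, since the exons of ZEB2 together span 25058 bases.

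**Figure D2:**
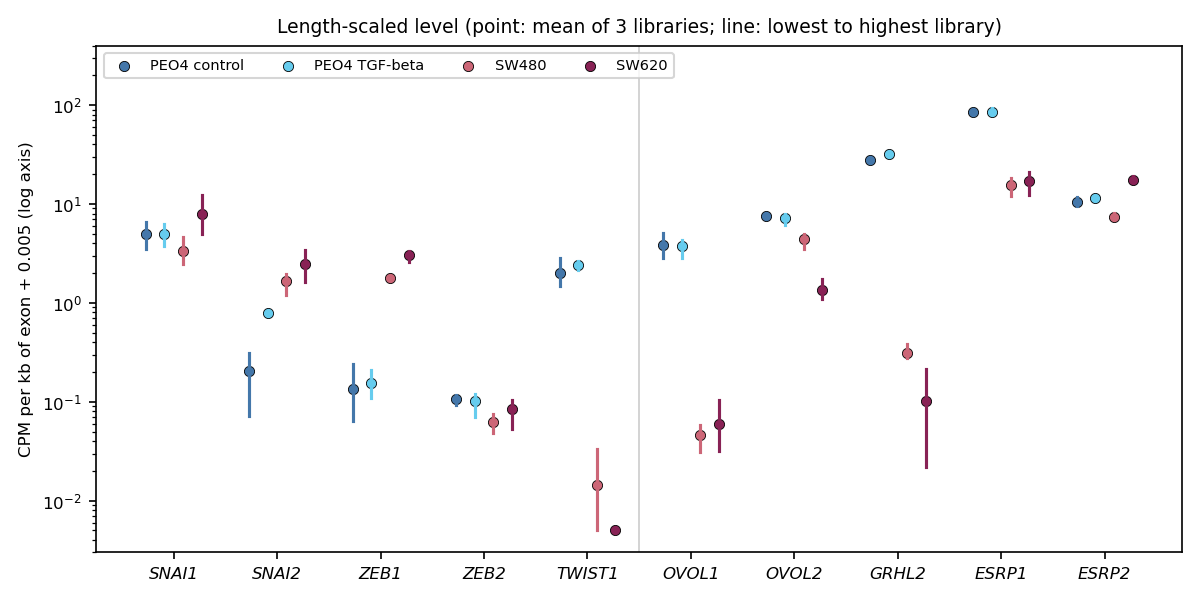
Mean level per kb of exon for each gene and group, as CPM per kb plus 0.005 on a log axis, with lines from the lowest to the highest of 3 libraries and the EMT factors left of the grey line. ESRP1 has the highest level in PEO4 (85.7 CPM per kb in control), and ESRP1 and ESRP2 are about level in SW620.

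The metastatic line SW620 was compared with SW480, the line of the primary tumour, to see how these genes differ between both sites of 1 patient. SW620 had more ZEB1, SNAI1 and ESRP2 messenger RNA and less OVOL2, so that the change crossed the division into EMT factors and guardians. Of the 8 genes tested, 4 passed, where 30.5% of all 20941 genes did. There were 3 higher (SNAI1, ZEB1, ESRP2; background 13.5%) and 1 lower (OVOL2; background 17%). TWIST1 and OVOL1 were too low in both lines to be tested.

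ESRP2 rose from 44.8, 39.2 and 39.3 CPM in SW480 to 92.1, 93.7 and 107 CPM in SW620. All SW620 libraries lay above all SW480 libraries, a 2.42-fold difference (log2 1.28, SE 0.15, edgeR quasi-likelihood adjusted p = 0.000241). ZEB1 was 1.73-fold higher (log2 0.79, SE 0.17, edgeR adjusted p = 0.00782), again without overlap. Both calls held under each of the 14 alternatives run for each gene.

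OVOL2, a zinc-finger repressor that acts on ZEB1 in epithelial tissue, fell from 7.62, 10.9 and 10.6 CPM in SW480 to 2.36, 2.58 and 3.78 CPM in SW620. The groups did not overlap, and the fall was 3.28-fold (log2 -1.71, SE 0.28, edgeR adjusted p = 0.00166), also under all 14 alternatives. SW620 replicate 3 was the highest of its group, with 4.2% of its OVOL2 counts at the measured carry-over share.

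SNAI1 was at 4.19, 4.77 and 7.82 CPM in SW480 and at 10.7, 8.31 and 20.8 CPM in SW620. The groups did not overlap, but SW620 replicate 3 was well above the other libraries of its group, which lay nearer to the highest SW480 library. The difference was 2.40-fold (log2 1.26, SE 0.36, edgeR adjusted p = 0.028). It did not pass without SW480 replicate 1 (edgeR adjusted p = 0.102), SW480 replicate 2 (0.0725), SW620 replicate 1 (0.0529) or SW620 replicate 3 (log2 0.81, 0.0699).

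GRHL2 gave 33, 29 and 44 counts in SW480 and 8, 2 and 27 in SW620. All libraries of SW620 were below those of SW480 in CPM, at log2 -1.64 (SE 0.69), which did not pass (edgeR adjusted p = 0.107). Of 13 alternatives 5 called it, with adjusted p from 0.00497 to 0.315. SW620 replicate 3 holds most of the SW620 counts, and at its measured share of PEO4 reads 37.8 GRHL2 counts would be carried over, more than the 27 observed. With SW620 replicate 3 left out, GRHL2 was at log2 -2.84 (edgeR adjusted p = 0.00578). The lower shares measured in the other libraries would give 5.54 of the 8 counts in SW620 replicate 1, 1.06 of the 2 in replicate 2, and 14.6% to 27.2% of the counts in SW480.

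SNAI2 (log2 0.60, SE 0.31, edgeR adjusted p = 0.182) and ZEB2 (log2 0.49, SE 0.42, 0.43) overlapped between the lines. SNAI2 passed under 2 of 14 alternatives, 1 of them without SW620 replicate 2 (edgeR adjusted p = 0.0382), with adjusted p from 0.0182 to 0.46 over all 14. ESRP1 was at 79.9, 58.1 and 88.6 CPM in SW480 and 87.4, 60.5 and 103 CPM in SW620, with overlap (log2 0.17, SE 0.22, edgeR adjusted p = 0.605). The ratio of ESRP1 to ESRP2 per exon base was therefore 1.69 to 2.57 in SW480 and 0.737 to 1.10 in SW620, without overlap. A two-sided exact permutation test of the log ratio gave p = 0.1, the smallest that 3 against 3 libraries allow.

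**Figure D3:**
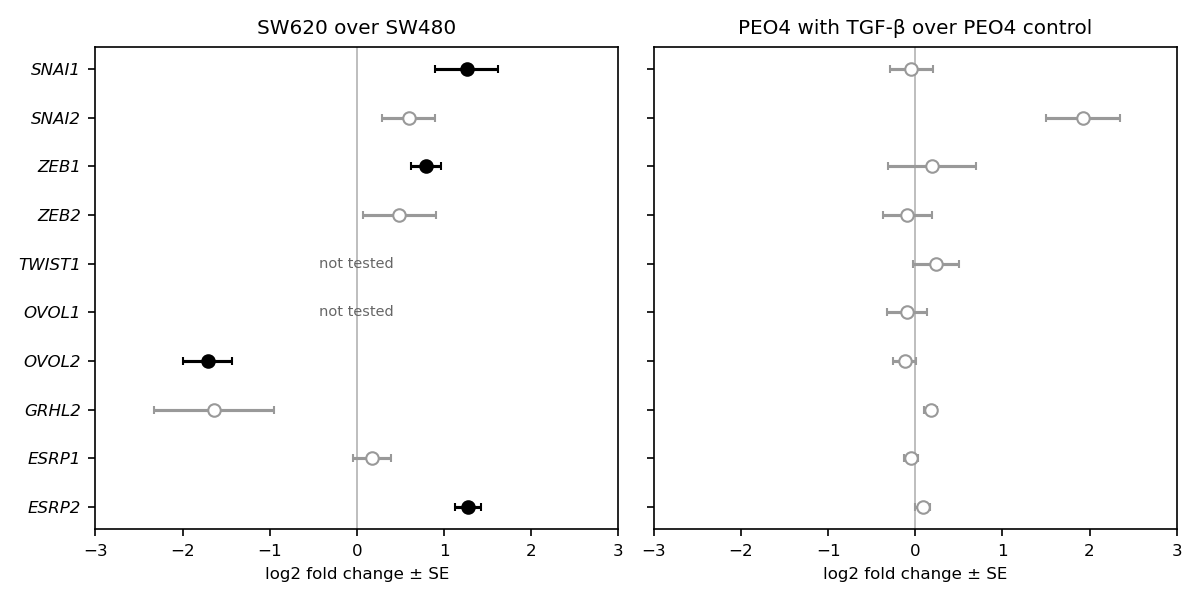
Log2 fold change with its SE for each gene in SW620 over SW480 (left) and PEO4 with TGF-β over control (right), with filled points for an adjusted p under 0.05. On the left SNAI1, ZEB1 and ESRP2 lie above 0 and OVOL2 below, and on the right no point is filled and SNAI2 stands furthest from 0, at 1.93.

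The genes around these factors were read from lists, and each count stands against 13.5% higher and 17% lower among all genes tested. Of 13 other EMT-linked transcription factors 9 were tested, of which 4 were higher in SW620 and 1 lower. SOX4, a SOX-family factor, was 3.36-fold higher, and FOXQ1, a forkhead factor, rose from 126 to 286 CPM. TCF3 was also higher, and FOXC1 fell from 29.4 to 9.97 CPM. Of the other epithelial factors 11 were tested, with 3 higher and 2 lower. FOXA2 rose from 7.87 to 86.9 CPM and its paralogue FOXA1 fell from 1.96 to 0.0651 CPM. ELF3, an epithelial ETS factor, rose from 17.2 to 44.4 CPM, and GRHL1, a paralogue of GRHL2, fell from 11.0 to 4.65 CPM.

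Among 19 tested epithelial target genes, 5 were higher and 3 lower in SW620, with a median log2 fold change of 0.09 beside 0.03 for all genes tested. CDH1, which encodes E-cadherin, was at 44.0, 22.6 and 53.3 CPM in SW480 and 56.7, 27.9 and 62.6 CPM in SW620, and its groups overlapped (log2 0.32, SE 0.34, edgeR adjusted p = 0.537). CLDN7, the claudin gene whose promoter with 5 E-boxes is shown above, fell from 77.2, 32.8 and 71.5 to 5.40, 4.54 and 9.31 CPM (log2 -3.21, SE 0.36, edgeR adjusted p = 0.000209). The other CLDN7 promoter held no E-box. CRB3, with as many E-boxes as the CLDN7 promoter shown, was at 8.44 and 8.80 CPM (log2 0.09, SE 0.28, edgeR adjusted p = 0.858). Of the other epithelial targets with at least 2 E-boxes in a promoter, DSP was called higher (389 to 638 CPM). OCLN and PATJ were not among the genes called. RAB25 was not called either, but it had only 2 to 26 counts per SW library, the most in SW620 replicate 3. Whether E-boxes bear on these levels was not tested. MAL2, a transcytosis protein, fell from 63.4 to 6.24 CPM, with SW620 libraries at 2.75, 1.08 and 14.9 CPM. Its level in PEO4 was 1334 CPM in control and 1558 CPM with TGF-β. At the 1.06% share measured in SW620 replicate 3, carried-over reads alone would give a MAL2 level near the one seen there. ERBB3, a receptor tyrosine kinase, rose 4.12-fold and CGN, which encodes cingulin, 3.65-fold.

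Mesenchymal target genes were mostly lower in SW620 where they differed: of 16 tested, 8 were lower (17% of all genes) and 2 higher (13.5%), with a median log2 fold change of -1.13. CDH11, a mesenchymal cadherin, fell from 39.0 to 0.266 CPM, the receptor AXL from 242 to 35.3 CPM and the gelatinase gene MMP2 from 2.21 to 0.320 CPM. TNC, which encodes tenascin C, rose from 5.34 to 46.5 CPM. VIM, the intermediate filament vimentin, fell from 333, 238 and 308 CPM to 124, 123 and 165 CPM (log2 -1.07, SE 0.19, edgeR adjusted p = 0.00295). Markers of stromal, endothelial and blood cells, which pure lines should lack, summed to 2.59 to 3.43 CPM over 8 genes in SW480 and 9.60 to 22.2 CPM in SW620. LUM and PECAM1 passed upward, and PDGFRA, DCN, CDH5 and PTPRC had at most 3 counts in each SW480 library. Their part in the result was not tested.

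Of 14 corepressors and partners of the SNAI and ZEB proteins, 4 were higher (CTBP2, KDM1A, EZH2 and SMARCA4) and 2 lower (LOXL2 and LOXL3). LOXL2, a lysyl oxidase that stabilises SNAI1, fell from 24.2 to 4.44 CPM, and LOXL3 from 17.6 to 11.3 CPM. KDM1A, a histone demethylase recruited by SNAI1, rose from 81.8 to 141 CPM, and CTBP2, a corepressor bound by ZEB1, from 81.6 to 129 CPM. Of 10 tested genes of SNAI1 protein turnover only USP27X, a deubiquitinase, passed, falling from 6.10 to 1.83 CPM. Of 9 other splicing regulators only QKI passed, falling from 47.6 to 15.0 CPM.

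Of 8 genes with exons set by the ESRP proteins, 4 fell, among them FGFR2, CD44 and NUMB, and ENAH rose. FGFR2, the growth factor receptor whose paired exons are the textbook ESRP target, fell from 21.5, 11.9 and 20.3 CPM to 0.0964, 0.0516 and 0.803 CPM, the highest being SW620 replicate 3. CD44 fell from 148 to 25.3 CPM, and ENAH rose from 87.7 to 132 CPM. These are counts of whole genes, so exon use itself was not measured here.

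MIR200CHG, the host transcript of miR-200c and miR-141 (chr12:6963246-6964447), gave 21, 28 and 27 counts in SW480 and 2, 0 and 0 in SW620. It was 41.1-fold lower there in pooled counts (95% counting interval 11.0 to 345) and passed (edgeR adjusted p = 0.00188). MIR205HG, host of a microRNA that also targets the ZEB messages, gave 31, 21 and 21 counts against 0, 0 and 2, or 39.4-fold lower (95% counting interval 10.5 to 332). From the chromosome 1 cluster, the MIR200A row had 10, 15 and 6 counts in SW480 and 109, 110 and 90 in SW620 (log2 3.21, SE 0.43, edgeR adjusted p = 0.000567). Its neighbours MIR200B (-0.43, SE 0.50) and MIR429 (0.39, SE 0.69) did not pass. Counts on hairpin rows of total RNA libraries are not levels of the mature microRNAs. ZEB1-AS1, an antisense transcript at the ZEB1 start, was at 7.41 and 7.51 CPM (log2 0.05, SE 0.23). ZEB2-AS1 had at most 3 counts in any SW library, and OVOL1-AS1 none.

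PEO4 with TGF-β was compared with PEO4 control, which asks which of these genes respond to the cytokine in ovarian cancer cells. After 6 days the cells had more matrix and mesenchymal messenger RNA, but none of the 10 genes passed the test, where 2.26% of the 19064 genes tested did (1.27% higher and 0.991% lower). At an unadjusted p under 0.05 edgeR gave 2 of the 10, SNAI2 and GRHL2, and 3175 genes in all. SNAI2 gave 18, 4 and 15 counts in control and 50, 46 and 54 with TGF-β. The treated libraries lay close together, from 2.59 to 2.78 CPM, and all above the controls at 0.228 to 1.04 CPM. The difference was 3.80-fold (log2 1.93, SE 0.42) and missed the threshold narrowly (edgeR adjusted p = 0.0539). In the authors' deposited table SNAI2 has log2 1.94 with an adjusted p of 0.00228. Here DESeq2 gave an adjusted p of 0.00209 and limma-voom 0.0474, and over all 14 alternatives the adjusted p ran from 0.000232 to 0.181.

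The other EMT factors lay within their spread. SNAI1 was at 11.2, 8.05 and 5.84 CPM in control and at 8.22, 10.6 and 6.29 CPM with TGF-β (log2 -0.04, SE 0.25). The ratio of SNAI1 to SNAI2 per exon base was 15.0 to 70.9 in control and 4.69 to 8.27 with TGF-β, without overlap (two-sided exact permutation p = 0.1, the smallest possible). ZEB1 had log2 0.20 (SE 0.50) from 9 to 35 counts per library, with 25.4% and 17.5% of the counts of replicate 3 in control and TGF-β at the carry-over share. ZEB2 (-0.09, SE 0.28) and TWIST1 (0.23, SE 0.26) overlapped as well. At these SEs, smaller changes of the EMT factors were not detectable.

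The guardians were measured more precisely. GRHL2 was at 180, 156 and 165 CPM in control and at 199, 196 and 191 CPM with TGF-β, so that all treated libraries were higher. The difference was 1.13-fold (log2 0.18, SE 0.07, edgeR adjusted p = 0.26). ESRP1 (log2 -0.05, SE 0.08), ESRP2 (0.09, SE 0.09), OVOL2 (-0.12, SE 0.13) and OVOL1 (-0.10, SE 0.23) overlapped between both groups.

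Mesenchymal target genes moved in PEO4: 7 of 16 tested rose (1.27% of all genes) and none fell (0.991%), with a median log2 fold change of 1.34 beside -0.02 for all genes. MMP9, a gelatinase, rose from 0.183 to 2.19 CPM, FN1, which encodes fibronectin, from 148 to 1051 CPM, COL3A1 from 2.68 to 18.5 CPM and COL5A1 from 12.5 to 61.9 CPM. CDH2 (N-cadherin), LOX and TAGLN were the others. VIM was at 23.2, 6.11 and 6.41 CPM in control and 59.2, 27.0 and 21.3 CPM with TGF-β. Replicate 1 was the highest in each group and the groups overlapped (log2 1.57, SE 0.52, edgeR adjusted p = 0.179). Of the VIM counts in control replicate 3, 32.8% lay at the carry-over share.

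Of the 20 epithelial target genes only TJP3, a tight junction protein, passed, falling from 51.1 to 33.7 CPM (log2 -0.65, SE 0.12, edgeR adjusted p = 0.0267). CDH1 was at 245, 191 and 165 CPM in control and 232, 237 and 173 CPM with TGF-β (log2 0.04, SE 0.15). Of 10 tested EMT-linked transcription factors outside the members, SOX4 alone passed. It rose from 107, 70.6 and 75.8 to 218, 226 and 196 CPM (log2 1.29, SE 0.13, edgeR adjusted p = 0.00233). None passed among the 12 tested other epithelial factors, 14 corepressors, 11 turnover genes, 9 splicing regulators, 8 genes with ESRP-regulated exons or 10 antisense and microRNA host transcripts. MIR200CHG was at 2.03 and 1.94 CPM and MIR205HG at 9.02 and 10.2 CPM. ZEB1-AS1 was at 5.47 and 5.51 CPM, ZEB2-AS1 at 0.0383 and 0.178 CPM, OVOL1-AS1 at 0.785 and 0.587 CPM, and the hairpin rows of the miR-200 family at 0.689 to 1.52 and 0.461 to 2.26 CPM. Of the ovarian markers WT1, EMX2 and MSLN passed, falling by 0.47, 0.49 and 0.77 on the log2 scale. MUC16 was at 5666 CPM in control and 2439 CPM with TGF-β and did not pass. Its libraries did not overlap (at least 3807 CPM in control, at most 3560 CPM with TGF-β). PAX8 and SOX17 had positive fold changes and did not pass.

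**Figure D4:**
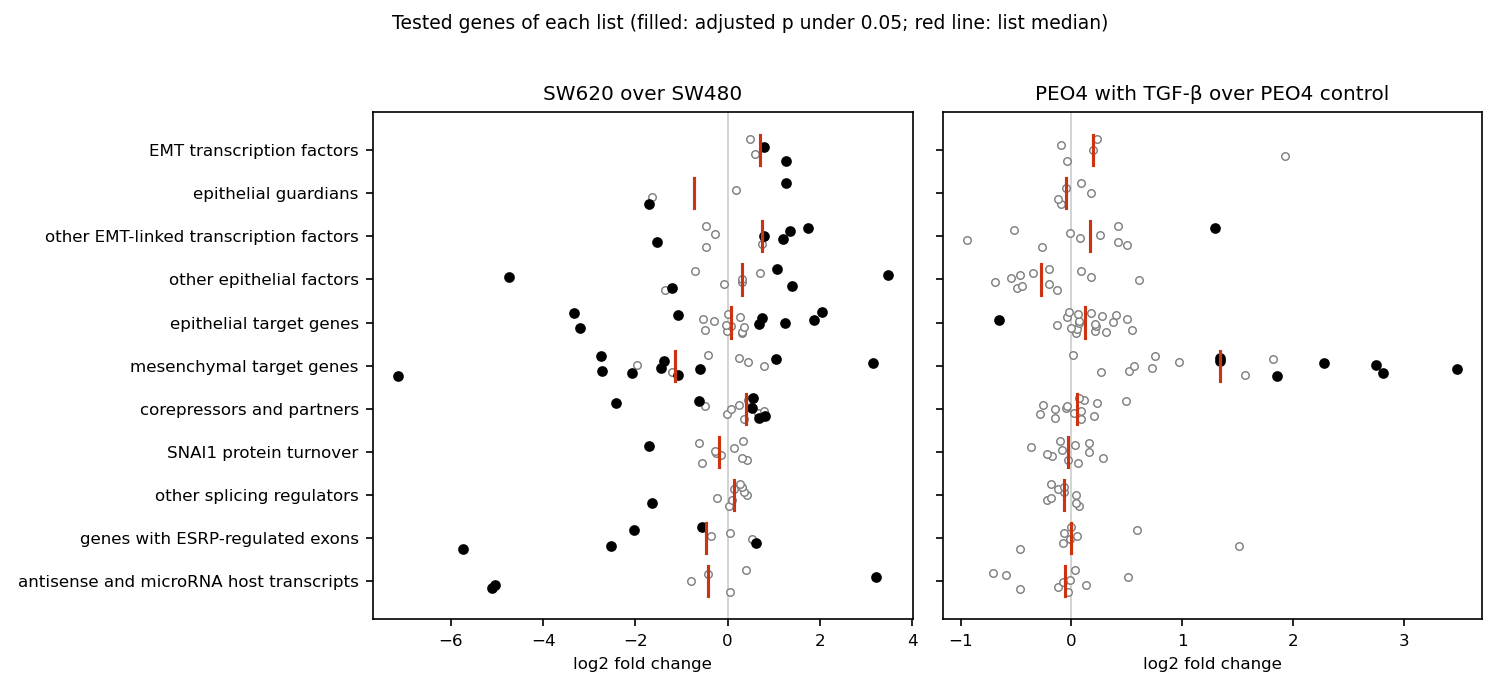
Log2 fold change of every tested gene by list, in SW620 over SW480 (left) and PEO4 with TGF-β over control (right), on separate scales, with filled points for an adjusted p under 0.05 and a red line at the median of the list. Mesenchymal target genes have their median at -1.13 on the left and 1.34 on the right.

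Over the 12 libraries the genes fell into patterns that follow the difference between PEO4 and the SW lines, so correlations (Pearson r of log2 CPM) mostly restate it. GRHL2, OVOL1, ESRP1 and TWIST1 had r of 0.97 to 0.99 with each other, and ZEB1 had r of -0.97 with GRHL2 and OVOL1. ESRP2 followed none of these (r of 0.00 with ESRP1 and 0.18 with ZEB1) and was nearest to SNAI1 among the members, at 0.70. Of 17701 genes with a mean of at least 1 CPM, those most like each member were as follows. ESRP1 on chromosome 8 was closest to LAPTM4B (r = 0.998) and DERL1 (r = 0.997), both also on chromosome 8. The closest genes of GRHL2 and SNAI2, which lie on chromosome 8 as well, were on other chromosomes. GRHL2 was closest to ZFP64 and PLCD1, OVOL1 to LINC02571 and ZSCAN1, and TWIST1 to SLC49A3 and PAK3, all at r of 0.996 to 0.997. ZEB1 was closest to LRRC2 and the pseudogene SLC25A24P1 (both r = 0.988), and OVOL2 to CCDC106 (0.988) and NXNL2 (0.987). For ESRP2 they were P2RY11 (0.979) and KSR1 (0.975), and for SNAI2 ILK (0.970) and TGFBI (0.967). SNAI1, with AKR1A1 (0.927) and IRF2BP2 (0.922), and ZEB2, with ALAS2 (0.930) and VCAN (0.906), had the least similar partners.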

How the data were processed

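Total RNA of 12 libraries was measured, 3 biological replicates in each of 4 groups taken from the labels. Reads were trimmed with Trimmomatic 0.36, aligned with STAR 2.5.2b to GRCh38 and counted with featureCounts (Subread 1.5.2), per the submitters' processing notes, which also name DESeq2. Annotation and strand use are not given in the sources used here. The authors' deposited table holds whole-number read counts for 57500 gene IDs, and their deposited comparison tables hold a log2 fold change and a p-value with its adjusted p-value per gene, which were only set beside the tests here.

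Counts were tested with edgeR 4.0.16 (R 4.3.3) in quasi-likelihood fits on all genes that passed filterByExpr, with TMM scaling and Benjamini-Hochberg adjustment over all genes tested. SW620 against SW480 and TGF-β against control were fitted on their own 6 libraries, and PEO4 control against each SW line on all 12. The SE is the log2 fold change divided by the square root of the F statistic. The method was also run on simulated counts with the same spread for all genes and no carry-over, and the outcome is not given here. Carry-over between lines was estimated for each library from its own set of genes. These had at least 50 CPM in every library of the source. In at least 1 other replicate of the receiving group they were under 0.2% of the mean source level. Positions and lengths came from GENCODE 29, which held 56898 of the IDs and need not match the annotation behind the counts.

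All 10 genes were named. From each list at most 4 genes past the threshold were named per comparison, those with the largest log2 fold change among genes of at least 1 CPM in the higher group, together with CDH1, VIM and the antisense and microRNA host transcripts. Some genes that the rule names are not reported here. CRB3, DSP, RAB25, MUC16, SOX17, CDX1 and GPA33 were named after their values were seen, as were the other list members given without a value. The genes and lists were chosen with earlier results of these data known. Alternatives were other scalings, filters and tests (DESeq2 1.42.0, limma-voom 3.58.1), the replicate number as a block, and each library left out. Same-numbered libraries correlated for replicates 2 and 3 of the SW lines (0.67 and 0.57) but not for replicate 1 (0.02). In PEO4 the values were mixed (0.29, -0.15 and 0.48). The numbers therefore did not pair all libraries, and the block was an alternative only. Shared handling of same-numbered libraries was not tested. Beyond 3 biological replicates, the labels do not say whether these were separate cultures, so p-values measure the spread between these libraries. Counting intervals cover counting error only.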

Additional observations from a re-analysis of the deposited data

How the results depend on the processing

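Of 529 alternative values for single members, 497 kept direction and side of the threshold, 17 newly passed, 5 no longer passed and 10 changed sign. All sign changes were in PEO4 with TGF-β among genes that never passed: with 1 library left out, log2 fold changes ran from -0.24 to 0.20 (SNAI1), -0.12 to 0.90 (ZEB1), -0.24 to 0.12 (ZEB2) and -0.28 to 0.16 (OVOL1). Without replicate 3 of both PEO4 groups, an alternative chosen after seeing the data, ZEB2 was at 0.112, OVOL1 at 0.025 and OVOL2 at 0.022, with 119 genes called and no member.

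SW620 against SW480 called 6385 genes, 10667 with the replicate block, and 4253 (without SW480 replicate 1) to 7419 (without SW620 replicate 3) with 1 library left out. Its count of members was 3 to 6 under all alternatives, and 6 with the block, where SNAI2 (edgeR adjusted p = 0.0182) and GRHL2 (0.00497) passed. TGF-β against control called 431 genes, 967 by DESeq2, 1457 without a filter, 2102 with the replicate block, 165 in the fit of all 12 libraries and 72 (without control replicate 2) to 1080 (without control replicate 1) with 1 library left out. Its count of members was 0, and 1 (SNAI2) with total counts, DESeq2, limma-voom, no filter, the block, all 12 libraries, or without control replicate 1, and 0 to 1 over the libraries left out. The cause was not tested. With at least 10 counts in every library 5 members could be tested between PEO4 control and each SW line, and 3 passed in each. Same-numbered libraries correlated at 0.02, 0.67 and 0.57 between the SW lines and at 0.29, -0.15 and 0.48 within PEO4. Of 80 levels, 36 moved by more than 1 SD with plain totals or another gene length. Depth limits ZEB1, ZEB2 and SNAI2 in PEO4 and GRHL2, OVOL1 and TWIST1 in the SW lines.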
